A study of Mus musculus with 9 samples.

Results

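The 9 genes described here belong to the red cell program and were read in cultures of blood stem and progenitor cells with and without a Notch ligand. Hemgn, Samd14, Car1, Car2, Aqp1, Ermap and Rhag stand for the earlier and membrane part of the program, and Alas2 and Hba-a1 for heme and globin. They were chosen by symbol, with earlier results of these data known, and every probe set annotated to them was taken, which gave 12 probe sets. The arrays held 45037 probe sets that were not array controls, for 18193 genes. Hba-a1 had 1 probe set of its own and 3 that it shares with its near-identical copy Hba-a2.

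All samples were lineage-negative, Sca-1-positive, c-Kit-positive (LSK) bone marrow cells of wild-type C57/Bl6 mice, a fraction enriched for blood stem and early progenitor cells. They were cultured for 3 days on OP9, a mouse stromal line that lacks functional M-CSF, and the cells that had not attached were collected. In the OP9-DL1+CompoundE group the feeder carried the Notch ligand Delta-like 1 (DL1) and the γ-secretase inhibitor CompoundE was present at 1 µM. In the OP9-DL1 group the feeder carried the ligand and no inhibitor is named, and in the OP9-GFP group the feeder was the control OP9 line. Each group had 3 arrays, hybridised with RNA amplified from 25 ng. The promoter that drives the ligand, and any vehicle given without the inhibitor, are not given in the sources used here. The labels do not state whether replicates are separate mice or cultures, so the p-values below measure only how far these samples spread, possibly for technical reasons.

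Notch receptors that meet a ligand such as DL1 are cut by γ-secretase, and the freed fragment enters the nucleus and acts with the DNA-binding protein RBPJ. An inhibitor of γ-secretase blocks that cut. Red cells arise from progenitors under GATA factors, first GATA2 and then GATA1, with survival and growth signals from the erythropoietin receptor and Kit. Genes for regulators, carbonic anhydrases and some membrane proteins are switched on early, while heme synthesis and globin rise steeply as erythroblasts mature. Platelet-forming megakaryocytes share a progenitor and many GATA1 targets with red cells.

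The sequences around the start site are shown for 4 genes, because GATA and CACCC elements are the textbook elements of red cell promoters. Hemgn and Aqp1 were among the genes that differed between the groups, and the own probe sets of Alas2 and Hba-a1 were not. The promoters are RefSeq sequences of the build GRCm38.p6, from 250 bases before to 50 after the start, and 6 of the 9 genes matched an entry (Samd14, Car1 and Car2 did not). Hemgn lies at chr4:46404134-46404433 on the minus strand, Aqp1 at chr6:55336049-55336348 on the plus strand, Alas2 at chrX:150547167-150547466 on the plus strand and Hba-a1 at chr11:32283422-32283721 on the plus strand. Capitals mark a GATA hexamer (AGATAA, or the same with T as its first or G as its last letter) or CACCC, on either strand, so that a match on the other strand reads as its reverse complement.
Hemgn (minus strand): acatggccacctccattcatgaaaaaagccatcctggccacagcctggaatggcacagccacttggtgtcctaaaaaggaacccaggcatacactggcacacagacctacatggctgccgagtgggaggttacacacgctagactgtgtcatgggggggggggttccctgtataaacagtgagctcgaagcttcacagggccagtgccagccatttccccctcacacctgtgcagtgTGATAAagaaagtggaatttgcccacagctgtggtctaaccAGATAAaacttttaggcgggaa
Aqp1 (plus strand): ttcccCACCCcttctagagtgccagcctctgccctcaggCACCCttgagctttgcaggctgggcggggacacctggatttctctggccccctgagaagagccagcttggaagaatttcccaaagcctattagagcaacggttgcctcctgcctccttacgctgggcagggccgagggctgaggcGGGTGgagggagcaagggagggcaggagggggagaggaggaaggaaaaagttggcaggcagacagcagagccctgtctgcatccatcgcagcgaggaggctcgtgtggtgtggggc
Alas2 (plus strand): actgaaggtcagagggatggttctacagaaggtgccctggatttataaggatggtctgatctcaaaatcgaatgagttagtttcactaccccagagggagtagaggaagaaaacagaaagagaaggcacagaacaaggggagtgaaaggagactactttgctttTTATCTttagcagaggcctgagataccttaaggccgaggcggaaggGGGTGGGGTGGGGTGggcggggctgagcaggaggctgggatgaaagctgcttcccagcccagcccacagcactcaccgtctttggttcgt
Hba-a1 (plus strand): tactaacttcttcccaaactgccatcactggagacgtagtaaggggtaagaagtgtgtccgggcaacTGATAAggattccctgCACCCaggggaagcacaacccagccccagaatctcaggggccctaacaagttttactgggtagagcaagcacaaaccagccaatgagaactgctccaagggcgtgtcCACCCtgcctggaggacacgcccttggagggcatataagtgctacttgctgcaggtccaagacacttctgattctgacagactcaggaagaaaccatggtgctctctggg

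The Hemgn window held 2 GATA hexamers, TGATAA 13 bases before the start and AGATAA 29 bases after it, and no CACCC. The Aqp1 window held 3 CACCC matches and no GATA hexamer. Alas2 had 1 GATA hexamer 86 bases before the start and 3 CACCC matches in a row, 40 to 30 bases before it. Hba-a1 had 1 GATA hexamer, 183 bases before the start, and 2 CACCC matches. The 2 windows not printed, those of Ermap and Rhag, each had 1 GATA hexamer and 1 CACCC match. Of the 4 kinds of motif searched, the GATA hexamer was present in 29.8% of all 32851 promoter windows of this length and CACCC in 57.5%. The E box CANNTG, bound by factors such as TAL1, was present in 72.3% of all windows and here in Hemgn (3 matches), Aqp1 (1) and Hba-a1 (1). The E box of Hba-a1 overlaps its GATA hexamer. The core TGGGAA bound by RBPJ was present in 25.6% of all windows and, once each, in those of Aqp1, Ermap, Alas2 and Hba-a1. These matches are letters in a window and say nothing about binding in these cells.

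All values below are the deposited log2 values, 1 per probe set and array, and a difference of 1 is a doubling. Background was read from 27 probe sets for bacterial transcripts that no mouse cell makes, which ran from 2.24 to 3.64 with a median of 2.78. A group counts as above background where its mean is above 3.64, and 6 of the 9 genes were so in at least 1 group. Tests are limma fits over all genes with Benjamini-Hochberg adjustment and a threshold of 0.05. The probe sets shared by Hba-a1 and Hba-a2 were tested in the same way over all probe sets. The 3 comparisons share arrays with each other, so they are not independent. The OP9-DL1+CompoundE group is called CompoundE for short. Where 2 differences are given for a gene with no comparison named, the first is OP9-DL1 minus OP9-GFP and the second CompoundE minus OP9-DL1.

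On OP9-DL1, 5 of the 9 genes were higher than on OP9-GFP and none was lower, with Hemgn, Samd14, Car2 and Aqp1 up between 2.30-fold and 4.33-fold and Car1 up 1.60-fold. Over all genes, 15.9% were called higher and 16.7% lower. As the 9 genes were chosen with earlier results of these data known, such shares set beside their counts are description and no test. With CompoundE the same 5 genes were lower than on OP9-DL1 and none was higher, against 21.6% of all genes called lower and 25.1% higher. With CompoundE, 4 of the 9, Hemgn, Samd14, Car2 and Aqp1, were also lower than on OP9-GFP (Samd14 not under every setting), and none was higher, against 10.6% of all genes called lower and 12.1% higher. The median difference of the 9 genes was 0.68 for OP9-DL1 minus OP9-GFP, -0.99 for CompoundE minus OP9-DL1 and -0.31 for CompoundE minus OP9-GFP. The medians of all genes were -0.02, 0.08 and 0.05 in the same order. In the first comparison the arrays of the 2 groups did not overlap for 5 of the 9 genes, all higher on OP9-DL1, against 20.8% of all genes that were so and 23% that were lower without overlap. In the second they did not overlap for 5 that were lower with CompoundE, against 23.2% of all genes, and for 1 that was higher, Hba-a1, against 29.3%. In the third they did not overlap for 4 that were lower with CompoundE (Hemgn, Car2, Aqp1 and, at background, Alas2), against 15% of all genes, and for none that was higher, against 19.8%. In a bulk sample fewer cells of a type and less RNA per cell cannot be told apart.

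**Figure D1:**
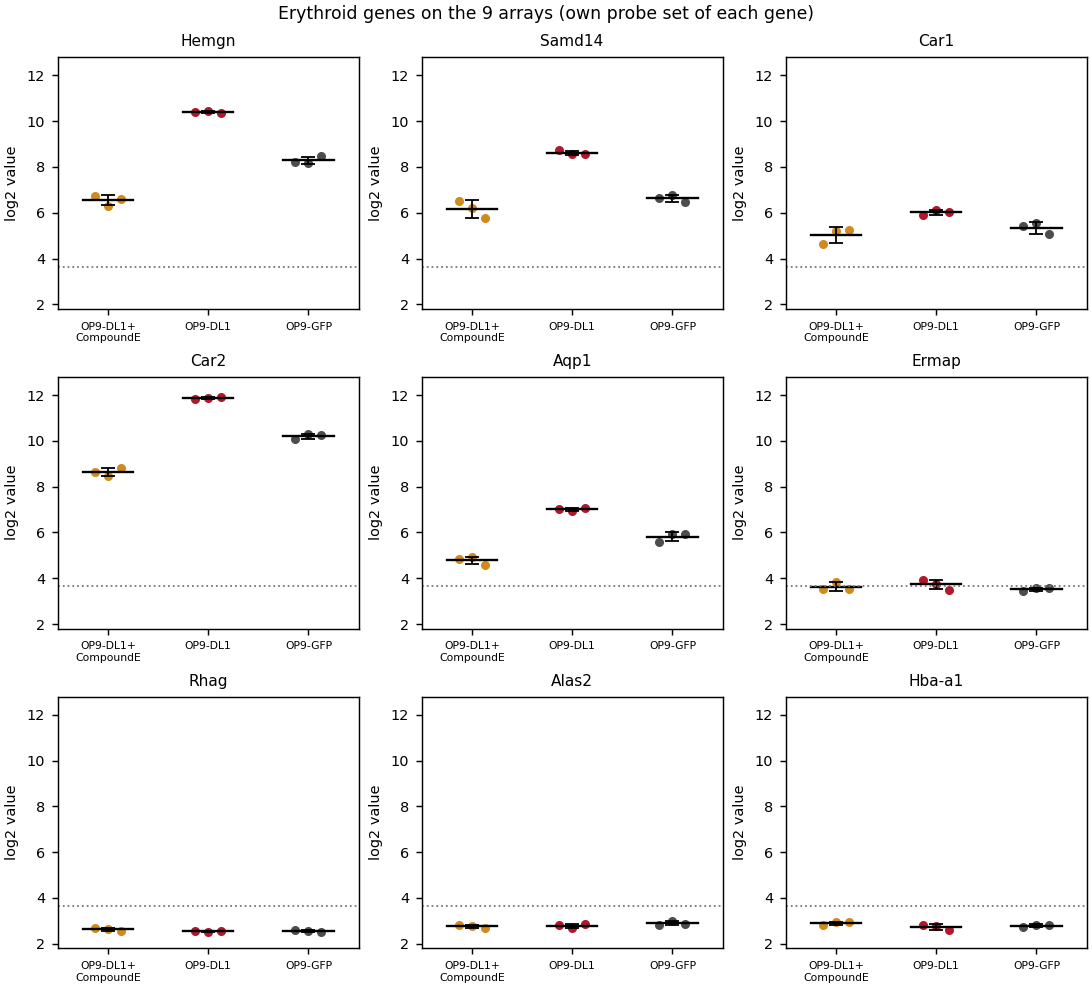
Log2 value (vertical axis) of the own probe set of each of the 9 genes on the 9 arrays, by group. Points are arrays, the bar is the group mean, the whisker its SD (n = 3), and the dotted line is the highest bacterial control, 3.64. Hemgn, Samd14, Car1, Car2 and Aqp1 are highest on all 3 OP9-DL1 arrays, while Rhag, Alas2 and Hba-a1 lie under the dotted line on every array.

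Hemgn encodes hemogen, a nuclear protein of blood-forming cells and a known GATA1 target. It read 6.72, 6.29 and 6.62 with CompoundE, 10.42, 10.43 and 10.37 on OP9-DL1, and 8.22, 8.18 and 8.46 on OP9-GFP. The 3 groups lay apart with no overlap, OP9-DL1 on top and the inhibited cultures at the bottom. Hemgn was 4.33-fold higher on OP9-DL1 than on OP9-GFP (log2 difference 2.11, SE 0.10, limma adjusted p = 8.1e-11). With CompoundE it was 14.5-fold lower than on OP9-DL1 (log2 difference -3.86, SE 0.10, adjusted p = 4.57e-14). It was then also 3.35-fold lower than on OP9-GFP (log2 difference -1.74, SE 0.10, adjusted p = 1.17e-08).

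Samd14 encodes a protein that in mouse erythroid progenitors promotes signalling through the receptor Kit. It read 6.50, 6.23 and 5.76 with CompoundE, 8.72, 8.57 and 8.57 on OP9-DL1, and 6.66, 6.78 and 6.48 on OP9-GFP. The OP9-DL1 arrays stood above all 6 others, and the inhibited arrays overlapped those on OP9-GFP. Samd14 was 3.94-fold higher on OP9-DL1 than on OP9-GFP (log2 difference 1.98, SE 0.15, adjusted p = 1.78e-08) and 5.50-fold lower with CompoundE than on OP9-DL1 (log2 difference -2.46, SE 0.15, adjusted p = 8.11e-10). CompoundE minus OP9-GFP was -0.48 (SE 0.15, adjusted p = 0.029). That last call was lost under 7 other settings, among them leaving out CompoundE replicate 3 (-0.28, adjusted p = 0.105), OP9-GFP replicate 1 (-0.47, adjusted p = 0.0813) or OP9-GFP replicate 2 (-0.41, adjusted p = 0.111).

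Car1 and Car2 encode cytosolic carbonic anhydrases, enzymes that interconvert carbon dioxide and bicarbonate and that are abundant in red cells. Car2 read 8.66, 8.47 and 8.80 with CompoundE, 11.85, 11.86 and 11.93 on OP9-DL1, and 10.08, 10.28 and 10.26 on OP9-GFP. As for Hemgn, the 3 groups did not overlap and ran in the same order. Car2 was 3.19-fold higher on OP9-DL1 than on OP9-GFP (log2 difference 1.68, SE 0.08, adjusted p = 3.62e-11). With CompoundE it was 9.44-fold lower than on OP9-DL1 (log2 difference -3.24, SE 0.08, adjusted p = 1.26e-14) and 2.95-fold lower than on OP9-GFP (log2 difference -1.56, SE 0.08, adjusted p = 1.58e-09).

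Car1 read 4.62, 5.22 and 5.23 with CompoundE, 5.90, 6.11 and 6.04 on OP9-DL1, and 5.42, 5.54 and 5.06 on OP9-GFP. Its OP9-DL1 arrays were again above all others, and the other two groups overlapped. The difference was 0.68 for OP9-DL1 minus OP9-GFP (SE 0.17, adjusted p = 0.0056) and -0.99 for CompoundE minus OP9-DL1 (SE 0.17, adjusted p = 0.000163). CompoundE minus OP9-GFP was -0.31 and was not called (SE 0.17, adjusted p = 0.216). On the scale log2(linear value + 32) the called differences were 0.41 and -0.58.

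The carbonic anhydrase genes Car13, Car1, Car3 and Car2 stand in a row on chromosome 3 in the RefSeq annotation of GRCm38.p6. Car3, known best as the muscle form, read 3.94, 3.37 and 4.17 with CompoundE, 5.14, 4.83 and 5.35 on OP9-DL1, and 4.47, 4.38 and 4.71 on OP9-GFP. It was lower with CompoundE than on OP9-DL1 by -1.28 (adjusted p = 3.48e-05). OP9-DL1 minus OP9-GFP was 0.58 (adjusted p = 0.027), a call lost under 7 other settings. These included leaving out OP9-DL1 replicate 1 or 3 or OP9-GFP replicate 1 or 2 (0.46 to 0.57, highest adjusted p = 0.128). As the mean of its probe sets Car3 differed by 0.23 (adjusted p = 0.0761) and -0.30 (adjusted p = 0.0161). Car13, named after its values were seen, differed by 0.12 for OP9-DL1 minus OP9-GFP (adjusted p = 0.458) and by -0.29 for CompoundE minus OP9-DL1 (adjusted p = 0.0298). Over the 14 other carbonic anhydrases, 1 was higher and 2 were lower on OP9-DL1 than on OP9-GFP (7.14% and 14.3%, against 15.9% and 16.7% of all genes), and 4 were higher and 2 lower with CompoundE than on OP9-DL1 (28.6% and 14.3%, against 25.1% and 21.6%). The mitochondrial form Car5b ran opposite to Car2, at -1.33 for OP9-DL1 minus OP9-GFP (adjusted p = 6.6e-05) and 1.92 for CompoundE minus OP9-DL1 (adjusted p = 8.24e-07). The membrane-bound Car14 also ran that way, at -0.55 (adjusted p = 0.00199) and 0.78 (adjusted p = 5.51e-05).

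Aqp1 encodes the water channel of the red cell membrane, which carries the Colton blood group. It read 4.83, 4.91 and 4.60 with CompoundE, 7.05, 6.93 and 7.06 on OP9-DL1, and 5.58, 5.92 and 5.93 on OP9-GFP. No group overlapped another, and the order was the one seen for Hemgn and Car2. Aqp1 was 2.30-fold higher on OP9-DL1 than on OP9-GFP (log2 difference 1.20, SE 0.13, adjusted p = 2.0e-06). With CompoundE it was 4.69-fold lower than on OP9-DL1 (log2 difference -2.23, SE 0.13, adjusted p = 7.11e-10) and 2.04-fold lower than on OP9-GFP (log2 difference -1.03, SE 0.13, adjusted p = 4.16e-05). On the scale log2(linear value + 32) CompoundE minus OP9-DL1 was -1.44 and CompoundE minus OP9-GFP was -0.57.

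Of the 12 other aquaporin and Rh family genes, 2 were higher and 1 lower on OP9-DL1 than on OP9-GFP (16.7% and 8.33%, against 15.9% and 16.7% of all genes). With CompoundE 2 were higher and 2 lower than on OP9-DL1 (16.7% each, against 25.1% and 21.6% of all genes). Aqp9, a channel for water and small neutral solutes, was 1.54 higher on OP9-DL1 than on OP9-GFP (adjusted p = 1.31e-08) and -2.22 with CompoundE against OP9-DL1 (adjusted p = 9.75e-11). Aqp11 differed by 0.75 (adjusted p = 0.00044) and -0.86 (adjusted p = 8.1e-05), but as the mean of its probe sets it differed by 0.21, which was not called (adjusted p = 0.0979), and -0.25 (adjusted p = 0.0317). Aqp3, a channel that also passes glycerol, went the other way, with -0.47 (adjusted p = 0.0149) and 0.36 (adjusted p = 0.0436). Those Aqp3 calls were lost without OP9-DL1 replicate 3 (-0.41, adjusted p = 0.0691, and 0.30, adjusted p = 0.15) and, for the first, without OP9-GFP replicate 2 (-0.34, adjusted p = 0.0969) and as the mean of its probe sets (-0.19, adjusted p = 0.123). The second Aqp3 call was also lost without any of CompoundE replicates 1 to 3 (0.34 to 0.40, highest adjusted p = 0.0921), OP9-DL1 replicate 2 (0.36, adjusted p = 0.0982) or OP9-GFP replicate 1 (0.36, adjusted p = 0.0533).

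Ermap encodes an erythroblast membrane protein that carries the Scianna blood group, and Rhag the glycoprotein that the Rh proteins need to reach the membrane. Ermap read 3.52, 3.85 and 3.55 with CompoundE, 3.92, 3.76 and 3.51 on OP9-DL1, and 3.44, 3.56 and 3.56 on OP9-GFP. All groups overlapped around the top of the bacterial controls. OP9-DL1 minus OP9-GFP was 0.21 (SE 0.13, adjusted p = 0.277) and CompoundE minus OP9-DL1 was -0.09 (SE 0.13, adjusted p = 0.601). Rhag read 2.67, 2.65 and 2.56 with CompoundE, 2.56, 2.51 and 2.56 on OP9-DL1, and 2.58, 2.56 and 2.50 on OP9-GFP. Every Rhag value was within the range of the bacterial controls, so no level above background was detectable, and the differences ran from -0.0039 to 0.08 with none called.

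Alas2 encodes the red cell form of 5-aminolevulinate synthase, the first and rate-limiting enzyme of heme synthesis. It read 2.80, 2.76 and 2.71 with CompoundE, 2.80, 2.67 and 2.87 on OP9-DL1, and 2.81, 3.01 and 2.88 on OP9-GFP. All 9 values were at background. OP9-DL1 minus OP9-GFP was -0.12 (SE 0.09, adjusted p = 0.384) and CompoundE minus OP9-DL1 was -0.02 (SE 0.09, adjusted p = 0.862). The housekeeping form Alas1 read 9.09, 9.27 and 9.01 with CompoundE, 8.02, 7.88 and 8.11 on OP9-DL1, and 8.97, 9.11 and 8.97 on OP9-GFP. Alas1 thus ran opposite to the early red cell genes, at -1.01 for OP9-DL1 minus OP9-GFP (adjusted p = 5.05e-08) and 1.12 for CompoundE minus OP9-DL1 (adjusted p = 1.02e-08), while CompoundE minus OP9-GFP was 0.11 (adjusted p = 0.392).

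The α-globin genes Hba-a1 and Hba-a2 encode the same chain of adult hemoglobin and lie near each other on chromosome 11, and the answer for Hba-a1 depended on the probe set. Its own probe set, 1453574_at, read 2.81, 2.94 and 2.93 with CompoundE, 2.80, 2.80 and 2.60 on OP9-DL1, and 2.72, 2.83 and 2.81 on OP9-GFP, all at background. Its differences were -0.05 for OP9-DL1 minus OP9-GFP (SE 0.09, adjusted p = 0.742) and 0.16 for CompoundE minus OP9-DL1 (SE 0.09, adjusted p = 0.164). The 3 probe sets that it shares with Hba-a2 were all above background on OP9-DL1 and all differed between the groups. In the array maker's naming, s marks a probe set shared by transcripts of several genes and x one with probes that can also bind other transcripts. By annotation they read α-globin RNA of either gene, and the 2 copies cannot be told apart by them. Probe sequences were not used here, so the target of each probe set was not checked.

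The shared probe set 1452757_s_at read 4.45, 4.20 and 4.79 with CompoundE, 7.31, 7.12 and 7.17 on OP9-DL1, and 4.35, 4.05 and 4.39 on OP9-GFP. The OP9-DL1 arrays stood far above the others, and the inhibited and OP9-GFP arrays overlapped. The signal of this probe set was 7.64-fold higher on OP9-DL1 than on OP9-GFP (log2 difference 2.93, SE 0.16, adjusted p = 9.52e-10) and 6.59-fold lower with CompoundE than on OP9-DL1 (log2 difference -2.72, SE 0.16, adjusted p = 1.4e-09). CompoundE minus OP9-GFP was 0.21 (SE 0.16, adjusted p = 0.401). On the scale log2(linear value + 32) the called differences were 1.80 and -1.72.

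The shared probe set 1428361_x_at read 6.21, 6.30 and 6.0 with CompoundE, 8.43, 8.48 and 8.37 on OP9-DL1, and 5.81, 6.05 and 5.79 on OP9-GFP. It showed the same picture, with OP9-DL1 above both other groups, which overlapped. The difference was 2.54 for OP9-DL1 minus OP9-GFP, a 5.83-fold rise (SE 0.11, adjusted p = 7.57e-11), and -2.26 for CompoundE minus OP9-DL1, a 4.79-fold fall (SE 0.11, adjusted p = 1.67e-10). CompoundE minus OP9-GFP was 0.29 (SE 0.11, adjusted p = 0.0901), and it was called with quantile normalization (0.39, adjusted p = 0.0254), with arrays centred on their medians (0.38, adjusted p = 0.0233) and without CompoundE replicate 3 (0.37, adjusted p = 0.0302).

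The third shared probe set, 1417714_x_at, read 3.37, 2.82 and 3.18 with CompoundE, 3.79, 4.30 and 4.29 on OP9-DL1, and 3.35, 3.30 and 2.89 on OP9-GFP. Only its OP9-DL1 values lay above the bacterial controls. Its differences were 0.95 for OP9-DL1 minus OP9-GFP (SE 0.18, adjusted p = 0.000631), -1.0 for CompoundE minus OP9-DL1 (SE 0.18, adjusted p = 0.000249) and -0.05 for CompoundE minus OP9-GFP (SE 0.18, adjusted p = 0.878). On the scale log2(linear value + 32) the called differences were 0.27 and -0.28.

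Counted by probe set, 8 of the 12 were higher on OP9-DL1 than on OP9-GFP and none lower, against 12.1% of all probe sets called higher and 12.8% lower. With CompoundE 8 of the 12 were lower than on OP9-DL1 and none higher, against 20% called lower and 19.1% higher. With CompoundE 4 of the 12 were lower than on OP9-GFP and none higher, against 10.8% called lower and 8.24% higher, and none of these 4 was an α-globin probe set. The 3 shared probe sets read overlapping RNA, so they are not independent of each other. Hemgn, Car2 and Aqp1 were lower with CompoundE than on OP9-GFP and the shared α-globin probe sets were not called in that comparison, but the difference between the genes in this respect was not tested.

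**Figure D2:**
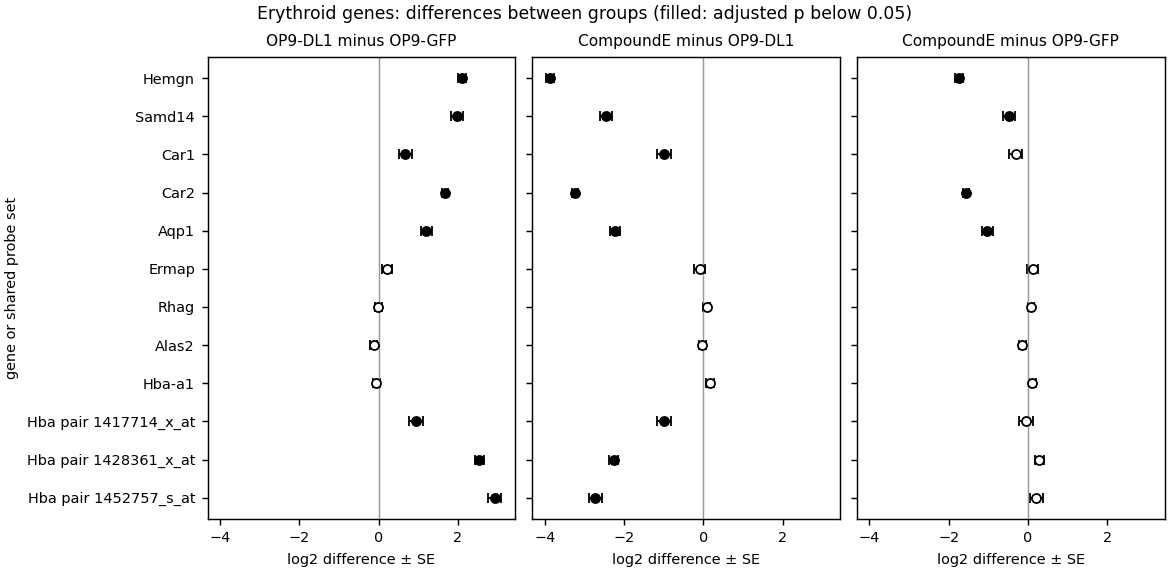
Log2 difference (horizontal axis) between the groups for the 9 genes and the 3 probe sets shared by Hba-a1 and Hba-a2 (vertical axis), 1 panel for each comparison. Points are the limma estimates with their SE, filled where the adjusted p is below 0.05. The shared α-globin probe sets rise by 0.95 to 2.93 on OP9-DL1 while the own probe set of Hba-a1 is at -0.05, and in the last panel Hemgn, Samd14, Car2 and Aqp1 lie left of zero.

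The other globins were read beside them. The probe set annotated to Hba-a2 alone, 1427219_at, read 11.56, 11.49 and 11.51 with CompoundE, 11.36, 11.39 and 11.35 on OP9-DL1, and 11.38, 11.40 and 11.44 on OP9-GFP. On OP9-GFP the 3 probe sets annotated to both copies averaged only 5.88, 4.27 and 3.18. The signal of 1427219_at is therefore not taken as the level of Hba-a2 RNA, and its target was not checked. This probe set was bright in every group and did not follow the shared probe sets. Its differences were -0.04 for OP9-DL1 minus OP9-GFP (adjusted p = 0.549) and 0.15 for CompoundE minus OP9-DL1 (adjusted p = 0.00668). That second call was lost without the intensity trend (adjusted p = 0.0541). The adult β-globin genes Hbb-bt, Hbb-bs, Hbb-b2 and Hbb-b1 share 1 probe set, 1417184_s_at, which was named after its values were seen. It read 6.14, 6.11 and 6.18 with CompoundE, 10.15, 10.01 and 10.08 on OP9-DL1, and 6.22, 6.21 and 6.45 on OP9-GFP. Its signal was thus 13.8-fold higher on OP9-DL1 than on OP9-GFP (log2 difference 3.79, SE 0.09, adjusted p = 1.7e-13) and 15.3-fold lower with CompoundE than on OP9-DL1 (log2 difference -3.93, SE 0.09, adjusted p = 4.36e-14). CompoundE minus OP9-GFP was -0.15 (SE 0.09, adjusted p = 0.296), and the arrays of these 2 groups did not overlap.

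Of the 5 other globins with a probe set of their own, Hbb-y and Hbb-b2 were higher on OP9-DL1 than on OP9-GFP and lower with CompoundE than on OP9-DL1. Hbb-y, an embryonic β-like globin, differed by 1.10 (adjusted p = 1.59e-05) and -0.92 (adjusted p = 7.12e-05), and its other probe sets, 1436717_x_at and 1436823_x_at, by 1.90 and 1.95 and by -2.13 and -2.00. Hbb-b2 differed by 0.70 (adjusted p = 0.000829) and -0.65 (adjusted p = 0.00109), or by 0.38 and -0.38 as the mean of its probe sets. Its group means of 2.80 with CompoundE, 3.45 on OP9-DL1 and 2.76 on OP9-GFP all lay within the range of the bacterial controls. Hba-x and Hbb-bh1, the other embryonic globins, were at background on all arrays, although Hbb-bh1, named after its values were seen, was called 0.34 higher with CompoundE than on OP9-DL1. The genes Hbb-b1, Hbb-bs, Hbb-bt, Hbb-bh2 and Ahsp have no probe set of their own here and were not analysed alone.

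**Figure D3:**
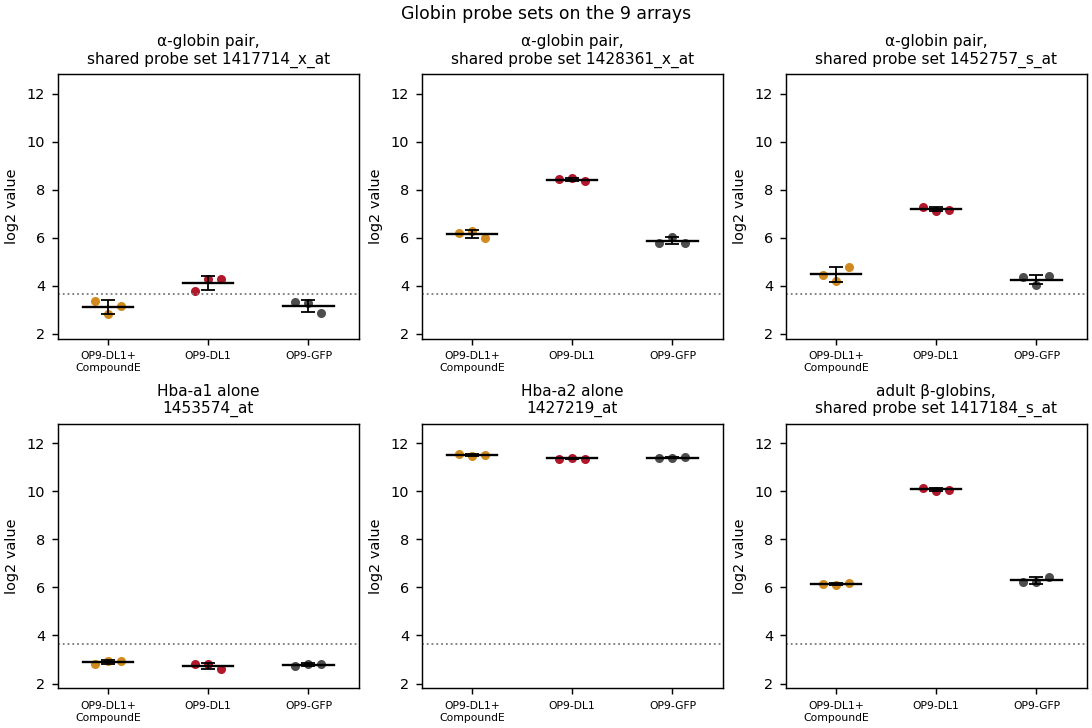
Log2 value (vertical axis) of 6 globin probe sets on the 9 arrays, by group, with points for arrays, bars for means, whiskers for SD (n = 3) and a dotted line at the highest bacterial control, 3.64. The probe sets shared between α-globin genes and between adult β-globin genes are highest on the 3 OP9-DL1 arrays. The probe set annotated to Hba-a1 alone is under the line, and that annotated to Hba-a2 alone stays between 11.35 and 11.56.

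Beyond the 9 genes, 95 other genes of the red cell and of these families were listed by role, again with earlier results of these data known. Of these, 86 had a probe set of their own and 71 were above background in at least 1 group. On OP9-DL1, 33 were higher and 7 lower than on OP9-GFP, that is 38.4% and 8.14% of them, against 15.9% and 16.7% of all genes. With CompoundE 34 were lower and 18 higher than on OP9-DL1, or 39.5% and 20.9%, against 21.6% and 25.1% of all genes. With CompoundE 18 were lower and 8 higher than on OP9-GFP, or 20.9% and 9.30%, against 10.6% and 12.1% of all genes. Their median differences were 0.10, -0.03 and 0.02 in the 3 comparisons, so the genes that moved were a part of the list and not its whole. Without the other carbonic anhydrases, Rh family genes and aquaporins, 60 remained. On OP9-DL1, 30 of these were higher and 4 lower than on OP9-GFP (50% and 6.67%, median 0.25). Against OP9-DL1, 30 were lower and 12 higher with CompoundE (50% and 20%, median -0.23). Against OP9-GFP, 15 were lower and 7 higher with CompoundE (25% and 11.7%, median 0.0068). Below, all 86 are called other red cell genes for short, these families included. With each array centred on its median, the share of higher calls among all called genes was 73.7% in place of 53.8% for CompoundE against OP9-DL1 and 78.2% in place of 53.4% for CompoundE against OP9-GFP. That centring moved the median of all genes from 0.08 to 0.21 in CompoundE minus OP9-DL1, and the differences of the 5 called genes in that comparison kept their sign.

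Of the erythroid transcription factors, 10 of 14 were higher and 2 lower on OP9-DL1 than on OP9-GFP (median 0.58), against 15.9% and 16.7% of all genes. Against OP9-DL1, 10 were lower and 2 higher with CompoundE (median -0.71), beside 21.6% and 25.1% of all genes. Gata1, the master regulator of red cell and megakaryocyte genes, read 6.31, 6.22 and 6.27 with CompoundE, 9.28, 9.18 and 9.28 on OP9-DL1, and 7.09, 7.09 and 7.11 on OP9-GFP. Its 3 groups ran in the order seen for Hemgn and Car2. The differences of Gata1 were 2.15 for OP9-DL1 minus OP9-GFP (adjusted p = 4.5e-12), -2.98 for CompoundE minus OP9-DL1 (adjusted p = 5.66e-14) and -0.83 for CompoundE minus OP9-GFP (adjusted p = 2.43e-06). Gata2, which acts earlier, differed by 1.82 (adjusted p = 1.95e-11), -2.72 (adjusted p = 9.7e-14) and -0.90 (adjusted p = 6.76e-07). The 2 factors that ran the other way were E2f2, a cell cycle factor, and Spi1, the myeloid factor PU.1, which was named after its values were seen. E2f2 was at -1.63 and 2.05 in the first 2 comparisons and Spi1 at -0.92 and 1.38. Klf1, the red cell factor that binds CACCC and was also named after its values were seen, was not called, at 0.49 for OP9-DL1 minus OP9-GFP (SE 0.22, adjusted p = 0.103).

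Of the 10 genes of erythropoietin receptor and Kit signalling, 7 were higher and none lower on OP9-DL1 than on OP9-GFP, against 15.9% and 16.7% of all genes. Against OP9-DL1, 6 were lower and none higher with CompoundE, beside 21.6% and 25.1% of all genes. Epor, the erythropoietin receptor, read 3.81, 4.14 and 3.81 with CompoundE, 5.76, 5.54 and 5.89 on OP9-DL1, and 4.18, 4.19 and 4.05 on OP9-GFP. The OP9-DL1 arrays stood apart, with differences of 1.59 against OP9-GFP (adjusted p = 1.51e-07) and -1.81 for CompoundE minus OP9-DL1 (adjusted p = 2.06e-08). Those 2 values were 0.78 and -0.85 on the scale log2(linear value + 32). Cish, a feedback inhibitor induced by STAT5, differed by 1.65 (adjusted p = 4.8e-07) and -1.25 (adjusted p = 7.75e-06). Kit, the receptor of stem cell factor, differed by 1.28 (adjusted p = 9.06e-09) and -2.08 (adjusted p = 1.44e-11), and Stat5a, which carries the signal to the nucleus, by 0.37 (adjusted p = 1.61e-05) and -0.46 (adjusted p = 1.08e-06).

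Of 16 membrane, skeleton and blood group genes, 6 were higher (37.5%) and none lower on OP9-DL1 than on OP9-GFP, against 15.9% and 16.7% of all genes. Against OP9-DL1, 5 were lower and 3 higher with CompoundE (31.25% and 18.75%, beside 21.6% and 25.1% of all genes). Cd59a, a complement inhibitor of the cell surface, differed by 1.25 (adjusted p = 1.67e-05) and -1.88 (adjusted p = 9.8e-08). Icam4, an adhesion molecule that carries the Landsteiner-Wiener blood group in humans, differed by 1.01 (adjusted p = 3.95e-05) and -1.65 (adjusted p = 9.97e-08). Kel, which carries the Kell blood group in humans, differed by 0.95 (adjusted p = 3.99e-06) and -1.13 (adjusted p = 3.89e-07) and was above background on OP9-DL1 alone. Gypc, glycophorin C, differed by 0.51 (adjusted p = 2.33e-05) and -0.52 (adjusted p = 1.35e-05). Sptb (0.62) and Xk (0.50) were also called higher on OP9-DL1 than on OP9-GFP. The 10 not called there included Ank1 (-0.11), Slc4a1 (-0.16), Epb42 (0.05) and Rhd (0.01). Their group means were 4.34 to 4.45 for Ank1, 3.60 to 3.76 for Slc4a1, 3.01 to 3.12 for Epb42 and 3.85 to 3.99 for Rhd, at or near background. Sptb, Xk and the genes not called were named after their values were seen. On the scale log2(linear value + 32) the values of Icam4 were 0.53 and -0.77, and those of Kel 0.23 and -0.26.

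Of 15 heme synthesis and iron uptake genes, 5 were higher and 2 lower on OP9-DL1 than on OP9-GFP (33.3% and 13.3%, against 15.9% and 16.7% of all genes). Against OP9-DL1, 7 were lower and 5 higher with CompoundE (46.7% and 33.3%, beside 21.6% and 25.1% of all genes). Tfr2, a transferrin receptor that binds the erythropoietin receptor, read 4.82, 4.13 and 4.78 with CompoundE, 6.48, 6.46 and 6.18 on OP9-DL1, and 4.84, 4.71 and 4.90 on OP9-GFP. It differed by 1.56 (adjusted p = 1.78e-06) and -1.80 (adjusted p = 2.2e-07). Alad, the enzyme after Alas1 and Alas2 in heme synthesis, differed by 0.61 (adjusted p = 3.36e-06) and -0.84 (adjusted p = 4.97e-08), the second being -0.55 as the mean of its probe sets. Tfrc, the main transferrin receptor, differed by 0.29 (adjusted p = 1.53e-05) and -0.41 (adjusted p = 1.78e-07). The other calls on OP9-DL1 were small, with Urod at 0.23, Abcb10 at 0.27 and Fech at -0.35, and these 3 were named after their values were seen.

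**Figure D4:**
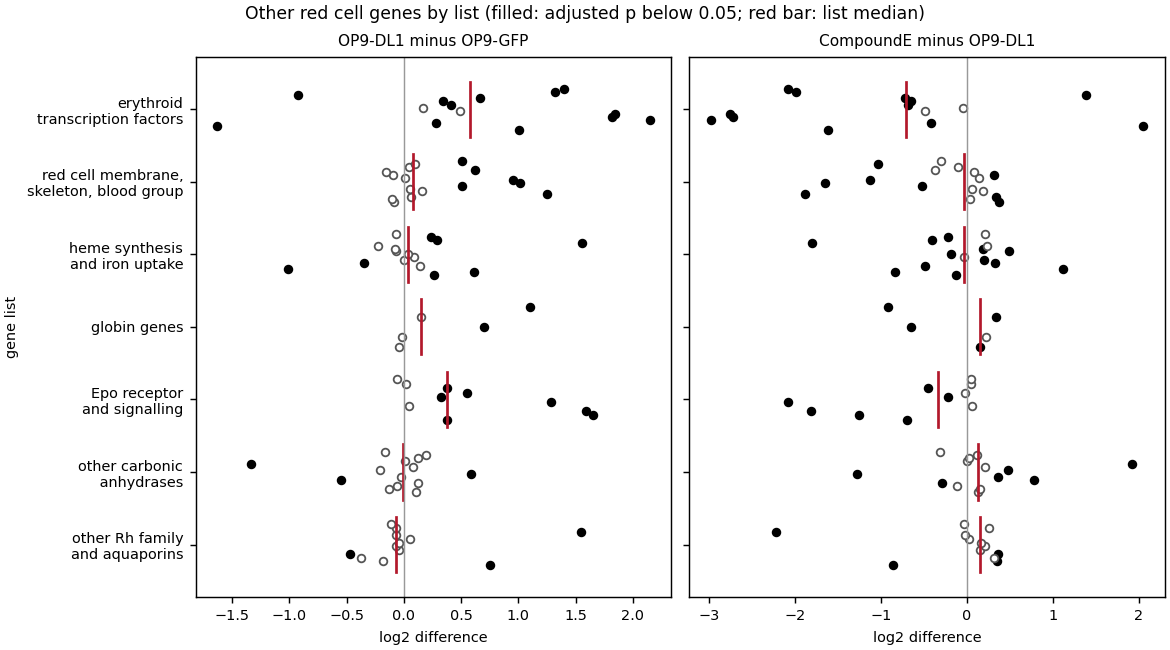
Log2 difference (horizontal axis) of each measured gene of the 7 lists of red cell and family genes (vertical axis). The panels are OP9-DL1 minus OP9-GFP and CompoundE minus OP9-DL1. Points are genes, filled where the limma adjusted p is below 0.05, and the red bar is the median of the list. The transcription factors have a median of 0.58 in the first panel and -0.71 in the second, while the medians of the membrane and heme lists lie near zero.

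Markers of other cells moved with these differences. Of all genes, 15.9% were called higher and 16.7% lower on OP9-DL1 than on OP9-GFP. With CompoundE 25.1% were higher and 21.6% lower than on OP9-DL1, and 12.1% and 10.6% than on OP9-GFP. All 10 measured megakaryocyte markers were higher on OP9-DL1 than on OP9-GFP (median 1.72) and all 10 were lower with CompoundE than on OP9-DL1 (median -2.15), and with CompoundE 7 were lower and 1 higher than on OP9-GFP. The log2 of their summed level ran from 12.34 to 12.41 with CompoundE, was 14.22 on all 3 OP9-DL1 arrays and ran from 12.76 to 12.79 on OP9-GFP, and none of the 10 was at background on all arrays. Among the megakaryocyte markers the largest changes were those of Tubb1, the platelet tubulin, at 2.70 for OP9-DL1 minus OP9-GFP, and Itga2b, a platelet integrin, at -2.56 for CompoundE minus OP9-DL1. The part of these cells in the results above was not tested.

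Of the macrophage markers, 10 of 11 were lower on OP9-DL1 than on OP9-GFP and none was higher, against 16.7% and 15.9% of all genes. Against OP9-DL1, 8 were higher with CompoundE, beside 25.1% of all genes, with C1qa at background on all arrays. The same shares of all genes, and 21.6% lower with CompoundE than on OP9-DL1, stand beside the marker counts that follow. Their summed level ran from 14.40 to 14.43 with CompoundE, 12.46 to 12.55 on OP9-DL1 and 14.18 to 14.20 on OP9-GFP (log2). Of 8 mast cell and basophil markers 5 were higher and 1 lower on OP9-DL1 than on OP9-GFP, and 6 were lower with CompoundE than on OP9-DL1, with sums of 10.86 to 10.94 with CompoundE, 12.42 to 12.45 on OP9-DL1 and 11.86 to 11.91 on OP9-GFP. Of 12 feeder stroma markers 8 were higher on OP9-DL1 than on OP9-GFP and 9 lower with CompoundE than on OP9-DL1, with sums of 13.76 to 13.81 with CompoundE, 14.19 to 14.23 on OP9-DL1 and 13.74 to 13.77 on OP9-GFP, and Dcn and Lum at background. Aqp1 and Car2 are also made outside the red cell line, Aqp1 in endothelium and Car2 in osteoclasts. Of 8 endothelial markers 5 were higher and 1 lower on OP9-DL1 than on OP9-GFP (62.5% and 12.5%, against 15.9% and 16.7% of all genes). Their sums ran from 8.18 to 8.42 with CompoundE, 10.42 to 10.56 on OP9-DL1 and 8.89 to 8.90 on OP9-GFP, with Emcn at background. The 1 that was lower was Cdh5 (-0.37, limma adjusted p = 0.0358), and Plvap averaged under 3.64 in every group. The 5 that were higher were Esam (2.23), Tek (2.15), Tie1 (1.69), Pecam1 (0.62) and Kdr (0.31), and Tek is a receptor also of stem cells. Of the 8, 4 were lower with CompoundE than on OP9-DL1 and none was higher (50% and 0%). These were Tek (-3.48), Tie1 (-2.85), Esam (-2.82) and Pecam1 (-1.06), while Kdr (-0.04) was not called. Apart from Tek, the endothelial markers were named after their values were seen. Of 8 osteoclast markers 2 were higher and 1 lower on OP9-DL1 than on OP9-GFP (25% and 12.5%, against 15.9% and 16.7% of all genes). Their sums ran from 9.75 to 9.90 with CompoundE, 9.78 to 9.89 on OP9-DL1 and 9.64 to 9.75 on OP9-GFP, with Calcr and Dcstamp at background. The sums of the OP9-DL1 arrays thus lay above those on OP9-GFP and overlapped those with CompoundE. Most of each sum was Nfatc1, which averaged 9.54 with CompoundE, 9.51 on OP9-DL1 and 9.49 on OP9-GFP, so the sums say little about the rest. OP9-DL1 minus OP9-GFP was 2.01 for Ocstamp, 0.80 for Acp5 and -0.61 for Ctsk. CompoundE minus OP9-DL1 was -1.13 for Ocstamp, 1.09 for Ctsk and, not called, -0.11 for Acp5. These osteoclast markers were named after their values were seen. Of the remaining lists, 6 of 8 stem and early progenitor markers were higher and 2 lower on OP9-DL1 than on OP9-GFP, as were 5 and 0 of 6 T cell markers and 6 and 4 of 10 granulocyte markers. Among the called T cell markers Cd3e was at background on all arrays, and the group mean of Cd3g was above it on OP9-DL1 alone. Both were named after their values were seen. Thy1 is counted in the T cell and in the feeder stroma list. The part of these cells in the results was not tested.

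For each of the genes whose group means span at least 1 (log2), the 3 genes with the nearest profile were sought, as the smallest root mean square distance between values centred on the gene mean over the 9 arrays. The search ran over the genes with a probe set of their own, with the 9 genes described here left out. The nearest to Car2 was Slc14a1, the urea transporter that carries the Kidd blood group in humans, at a distance of 0.0924. Slc14a1 averaged 8.38 with CompoundE, 11.62 on OP9-DL1 and 9.95 on OP9-GFP, and it was followed by Kcnj5 (0.148) and Med12l (0.15). The nearest to Aqp1 were Fnbp1l (0.0957), Mylk (0.129) and Bex1 (0.133). The nearest to Samd14 were Lancl3 (0.127), Rnf180 (0.138) and Ufsp1 (0.156), and the nearest to Hemgn were Gm10419 (0.158), Tek (0.238) and Rgs1 (0.252). Tek, the angiopoietin receptor of endothelium and stem cells, averaged 5.74 with CompoundE, 9.22 on OP9-DL1 and 7.07 on OP9-GFP. These distances describe 9 arrays in 3 groups, which share their group differences.

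**Figure D5:**
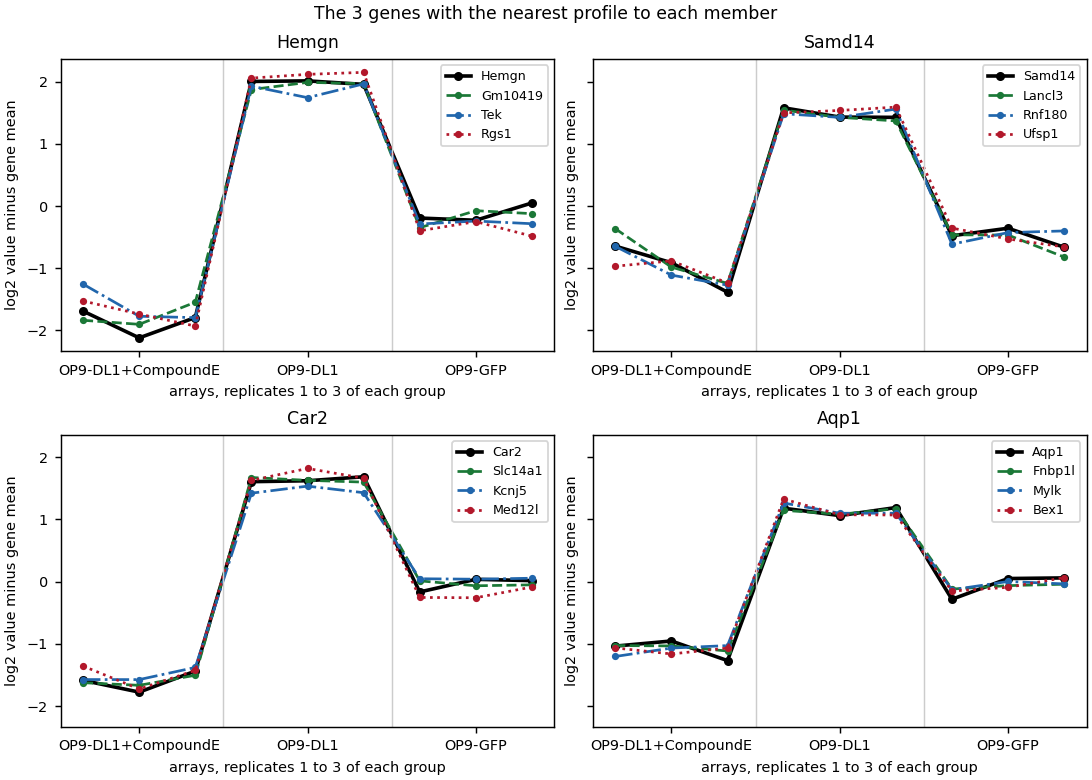
Log2 value minus the mean of the gene (vertical axis) on the 9 arrays (horizontal axis, replicates 1 to 3 of each group) for Hemgn, Samd14, Car2 and Aqp1 in black and for the 3 genes nearest to each in colour. The lines only join points of a gene, and the 9 genes described here were left out of the search. Slc14a1 lies on Car2 at a distance of 0.0924, and the neighbours of Hemgn are the farthest, at 0.158 to 0.252.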

How the data were processed

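RNA of 9 samples was measured on 1-colour oligonucleotide arrays, 3 per group by title. For each array and probe set the authors deposited a log2 value. MAS5 and GCRMA 2.4.1 were used, per the submitters' processing notes, and the sources used here do not say which step gave the values. GCRMA pulls dim values to a floor, so if it was used, folds against dim groups are uncertain in size. Precision is limited by the number of arrays. Equal values on arrays of a group, seen for 5.48% to 11.2% of genes, lower their spread.

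Symbols came from the platform annotation, updated through Entrez IDs with RefSeq (GRCm38.p6). A gene was represented by its brightest probe set with that symbol alone (18193 genes). R 4.3.3 and limma 3.58.1 (lmFit, eBayes with trend) were fitted on all 9 arrays, over genes and over 45037 probe sets, with Benjamini-Hochberg adjustment. The fit was tested on simulated data. Alternatives were another scale, other normalizations and filters, no trend, fewer arrays and the replicate number as a block.

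The members and lists were chosen with earlier results of these data known. Genes named are the members, from each red cell list up to 3 called genes of smallest p in OP9-DL1 against OP9-GFP and in CompoundE against OP9-DL1, the 3 nearest profiles of each member whose group means span at least 1, and up to 2 markers per marker list.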

Additional observations from a re-analysis of the deposited data

How the results depend on the processing

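Of 22 calls on the 9 genes and on the shared globin probe sets, 21 kept their direction and stayed called under every alternative run on them, up to 20 each, and the exception was Samd14 in CompoundE minus OP9-GFP. Arrays give no counts, and signal near the bacterial controls limits Ermap, Rhag, Alas2 and Hba-a1. With only genes brighter than the median, which leaves out dimmer genes by construction, 3 of the 9 genes were higher on OP9-DL1 than on OP9-GFP and 3 lower with CompoundE than on OP9-DL1, and among the other red cell genes 21 were higher on OP9-DL1 and 11 higher with CompoundE than on OP9-DL1. With arrays centred on their medians, 2 of the 9 genes (Rhag and Hba-a1, both at background) and 2 of the 12 probe sets were higher with CompoundE than on OP9-DL1, as were 28 other red cell genes, and 22 of these were higher with CompoundE than on OP9-GFP. In that last comparison 1 probe set, 1428361_x_at, was called higher with centring and 1 with quantile normalization. With each array left out in turn, 0 to 1 probe sets were called higher there, and 5 to 9 other red cell genes, the lowest without OP9-GFP replicate 3.

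Differences that were not called changed sign as follows, and the cause was not tested. In CompoundE minus OP9-DL1, centring gave Ermap 0.0416 and Alas2 0.11, and quantile normalization gave Rhag -0.0001. With an array left out Ermap ran from -0.202 to 0.0044 and Alas2 from -0.0781 to 0.0226. In OP9-DL1 minus OP9-GFP, quantile normalization gave Rhag 0.0311. With an array left out Rhag ran from -0.0272 to 0.0133 and Hba-a1 from -0.0894 to 0.0131. In CompoundE minus OP9-GFP, centring gave Gypc 0.0848, Stat5a 0.0073 and the α-globin probe set 1417714_x_at 0.0414. The mean of probe sets gave Hbb-y -0.0345, Hbb-b2 -0.0059 and Aqp3 0.0613, and quantile normalization gave Hbb-b2 -0.0216. With an array left out Gypc ran from -0.0739 to 0.0503, Hbb-b2 from -0.0652 to 0.1574, Aqp3 from -0.2037 to 0.0276 and 1417714_x_at from -0.1943 to 0.1006.

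On the scale log2(linear value + 32), which shrinks dim values by construction, differences fell by more than 1.5 times for several called genes besides those named above. The values for OP9-DL1 minus OP9-GFP and CompoundE minus OP9-DL1 were 0.93 and -1.03 for Tfr2, 0.91 and -0.73 for Cish, -0.59 and 0.93 for Car5b, 0.27 and -0.52 for Car3, 0.24 and -0.27 for Aqp11, -0.16 and 0.12 for Aqp3, 0.40 and -0.35 for Hbb-y and 0.15 and -0.14 for Hbb-b2.

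Deviations of same-numbered samples were little correlated (from -0.115 to 0.119), which cannot show whether the numbers mark a shared mouse or batch. With the replicate number as a block the 9 genes gave the same counts, 5 higher, 5 lower and 4 lower in the 3 comparisons, and the other red cell genes 33 higher and 7 lower, 16 and 32, and 9 and 17. The block moved all genes to 2823 higher and 2932 lower, 4442 and 3853, and 2101 and 1871. It took the call from Tfrc in CompoundE minus OP9-GFP (adjusted p = 0.0583) and gave one to Car5b there (adjusted p = 0.0214).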
